A study of Rattus norvegicus with 24 samples.

Results

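Glucocorticoid-induced genes were examined in microvessels isolated from rat brain cortex, as the 14 probes of an expression array whose only gene symbol is Tsc22d3, Sgk1, Klf9, Dusp1, Errfi1, Angptl4, Ddit4, Cdkn1a, Cebpb or Hif3a. All 10 genes had at least 1 probe, and they make up 14 of the 31042 probes tested. In HAL rats the portal vein was joined to the vena cava (portocaval anastomosis) and the hepatic artery was tied off 24 h later, leaving an ischaemic liver in place. In HEP rats the same anastomosis was followed after 24 h by removal of the whole liver. Sham rats had 2 mock operations. Killing took place 8 to 12 h after the second operation. Each group has 8 arrays, 24 in all. Since the labels do not state whether every array comes from its own animal, the p-values cover the spread between arrays, which may in part be technical.

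Glucocorticoids from the adrenal gland enter cells and bind the glucocorticoid receptor, which then moves to the nucleus and switches on genes that carry its response element. In brain endothelium this pathway is known for tightening the barrier and damping inflammation. Tsc22d3 encodes GILZ, a leucine zipper protein that carries much of the anti-inflammatory action. Dusp1 is a phosphatase that switches off MAP kinases, and Errfi1 is an inhibitor of EGF receptor signalling. Sgk1 is a kinase that regulates ion channels and transporters. Ddit4 inhibits mTORC1, and Angptl4 is a secreted inhibitor of lipoprotein lipase. Klf9 and Cebpb are transcription factors. Cdkn1a encodes the cell cycle inhibitor p21, which p53 also induces. Hif3a is a hypoxia-inducible factor subunit with forms that inhibit the hypoxia response, and Ddit4 and Angptl4 are also induced by hypoxia.

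The values available here limit what can be said. Of each log2 signal only the decimals are kept: the integer part is lost, and so are zeros at either end of the decimals. A signal below 10 has up to 9 such digits and a signal of 10 or above has up to 8, so the number of digits tells on which side of 10 a probe lies. Each value was read, without use of the groups, as the value with those digits that lies closest to the centre of its probe over all 24 arrays. A difference between groups is then known only up to whole log2 units. The fitted differences below are differences between the group means of these readings, and are called the shorter way round the unit. A true change between 0.5 and 1 then appears with the opposite sign, and one of a whole unit appears as none. For widely spread probes, sign and size also depend on where the unit was cut, so these differences need not be the shorter way. A direction was considered only for probes whose within-group SD was at most 0.2 on the log2 scale, since digits spread evenly over a whole unit have an SD of 0.289. Deviations below are log2 readings minus the centre of the probe.

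Most of these genes gave a bright signal. Of the 14 probes 7 had no array with 9 digits, as a log2 signal of 10 or above on all 24 arrays gives, against 6.19% of all probes tested. They stand for 7 of the 10 genes, namely Tsc22d3, Sgk1, Dusp1, Errfi1, Angptl4, Ddit4 and Klf9. An eighth probe, 1388674_at of Cdkn1a, had 9 digits on 1 array, Sham array 7. Probes of 1 gene differed: Klf9 had 1 bright probe and 2 with 21 and 22 arrays of 9 digits, and the second Dusp1 probe, 1368147_at, had 19. These are differences between probes and are not read as differences in transcript level. Their cause was not tested. Cebpb had 14 arrays with 9 digits and Hif3a 12. Both were likeliest to lie below 10 with first decimals often lost as zeros, Hif3a by 16.1 and Cebpb by 4.54 in log-likelihood over the next best position. For Cdkn1a probe 1387391_at and Dusp1 probe 1368147_at this margin was only 0.308 and 0.173. Centres counted as close to 10 start 0.5 below it, and the Dusp1 centre, with decimals of 0.50, lies at that limit. The near tie of the 2 positions is therefore no evidence of a level close to 10.

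**Figure D1:**
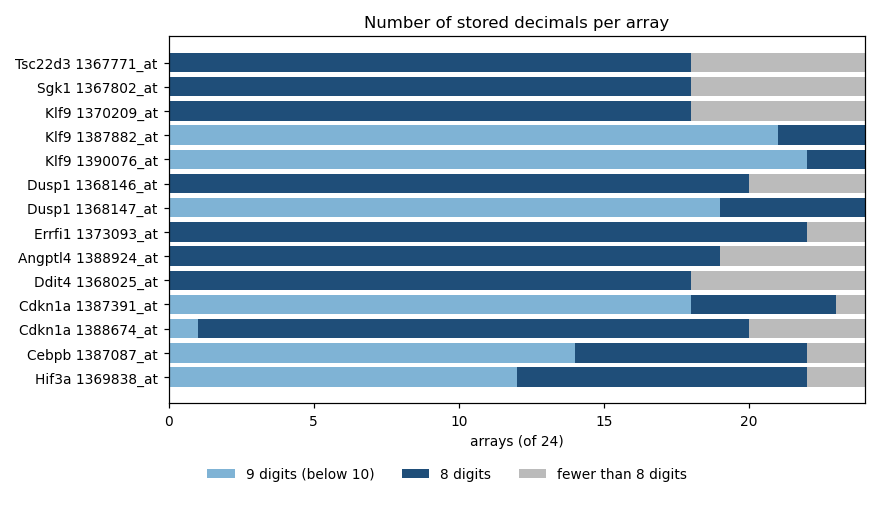
Number of arrays, of 24, on which each of the 14 probes has 9, 8 or fewer stored decimals, with 1 bar per probe. The probes of Tsc22d3, Sgk1, Errfi1, Angptl4 and Ddit4 and 1 probe each of Klf9 and Dusp1 have no array with 9 digits.

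The same bright probes also varied widely between arrays of 1 group. Within-group SD was 0.213 to 0.276 for the 7 bright probes, so 0 of 7 met the limit of 0.2. Of all 1923 bright probes tested 60.5% met it. This is a description of 7 probes, and since readings stay within a unit around the centre, the true spread of these genes may be larger. In bulk vessel samples, fewer cells of a type and less RNA per cell cannot be told apart. For these genes neither the size nor the direction of a difference can be read.

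The decimals of the bright genes show this spread. Tsc22d3 had deviations of -0.38, -0.04 and 0.13 as the lowest, median and highest of the HAL arrays, -0.13, 0.12 and 0.32 in HEP, and -0.44, -0.05 and 0.38 in Sham. The Sham arrays thus cover nearly a whole unit, and both liver failure groups lie within them. Their concentration around a circle of 1 unit, where 1 means identical decimals and 0 an even spread, was 0.648 in HAL and 0.553 in HEP, against 0.096 in Sham. Whether this concentration differs between the groups was not tested. For Sgk1 it was 0.544 in HAL and 0.567 in HEP, against 0.108 in Sham. Its deviations ran from -0.18 to 0.30 in HAL and from -0.16 to 0.36 in HEP, against -0.46 to 0.22 in Sham, and the groups overlap. The bright Klf9 probe, 1370209_at, was spread in all groups, with concentrations of 0.365, 0.176 and 0.069 in HAL, HEP and Sham.

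Dusp1, by its bright probe 1368146_at, had deviations of -0.39, 0.37 and 0.48 in HAL (lowest, median and highest), -0.34, 0.01 and 0.30 in HEP, and -0.24, -0.04 and 0.49 in Sham. All groups overlap. Measured on the circle, the HAL mean lies -0.49 from the Sham mean, close to the 0.5 at which a rise and a fall cannot be told apart. Limma gave a difference between mean readings of 0.25, of the opposite sign (SE 0.12, adjusted p = 0.365). The exact permutation test of the decimals on a circle, two-sided and without direction, gave p = 0.0141 before adjustment and 0.259 after it. The 2 Dusp1 probes did not follow each other across the 24 arrays, with a Pearson correlation of -0.102 between their readings, given as a description. Angptl4 had concentrations of 0.347 in HAL, 0.536 in HEP and 0.458 in Sham, Ddit4 of 0.482, 0.405 and 0.109, and Errfi1 of 0.487, 0.274 and 0.265. None of these 3 passed in limma, with adjusted p of 0.530 (Angptl4) to 0.936 (Errfi1) for HAL minus Sham.

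Across all members the count of called probes was small. For HAL minus Sham 1 of 14 probes passed an adjusted p of 0.05 in limma over all 31042 probes, of which 101 passed (0.325%), 35 of them higher (0.113%) and 66 lower (0.213%) on the shorter way. At an unadjusted p under 0.05 there were 3 member probes, against 12.3% of all probes, and 2 in the exact permutation test, against 12.4%. For HEP minus Sham 0 of 14 passed in limma, against 25 of all probes (0.0805%), 13 of them higher (0.0419%) and 12 lower (0.0387%) on the shorter way. At an unadjusted p under 0.05 there was 1 member in limma, against 9.48% of all probes, and 1 in the permutation test, against 9.79%. Both comparisons use the same Sham arrays. For HAL minus HEP 0 of 14 and 0.0% of all probes passed in limma, with 2 members at an unadjusted p under 0.05 in limma, against 6.81%, and 1 in the permutation test, against 6.58%. The permutation test called no probe after adjustment in any comparison. The median difference over the 14 probes was 0.03 in HAL and 0.08 in HEP, against 0.01 and 0.01 over all probes. Since 8 of the 14 were over the SD limit, no direction is read from this median. Over the 6 member probes of small spread the median difference was 0.03 in HAL and 0.0074 in HEP, against 0.02 and 0.01 over all probes of small spread.

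The called probe was 1387391_at of Cdkn1a in HAL. Its deviations were -0.49, -0.24 and 0.01 in HAL (lowest, median and highest), -0.45, -0.04 and 0.41 in HEP, and 0.04, 0.22 and 0.41 in Sham. As read, 7 of 8 HAL arrays lie below the centre and 8 of 8 Sham arrays above it, so these groups do not overlap, which holds for 0.28% of all probes. No member's groups were apart in HEP minus Sham (0.0548% of all probes) or HAL minus HEP (0.0419%). The HEP arrays lie on both sides, 4 of 8 below, and overlap both other groups. The mean deviation was -0.24 ± 0.18 in HAL and -0.02 ± 0.24 in HEP, against 0.21 ± 0.15 in Sham (SD, n = 8 each). Limma gave -0.46 for HAL minus Sham (SE 0.095, adjusted p = 0.0342), and the exact permutation test gave p = 0.00280 before and 0.155 after adjustment over all probes. For HEP minus Sham limma gave -0.24 (adjusted p = 0.372), and for HAL minus HEP -0.22 (adjusted p = 0.664).

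Cdkn1a thus differed between HAL and Sham by the fit, but its direction cannot be read. The other way round the same difference is 0.54, close in size to -0.46. On the circle the HAL and Sham arrays are separated by a gap of 0.033 on one side and of 0.098 on the other. The call was also thin. It ended without any 1 of 8 of the arrays, namely Sham arrays 4, 6, 7 and 8 and HAL arrays 2, 5, 6 and 8, with adjusted p of up to 0.0678 in limma. It also ended, with an adjusted p of 0.492 and a difference of -0.21 in limma, when the spread used to place the readings was fixed at 0.2.

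**Figure D2:**
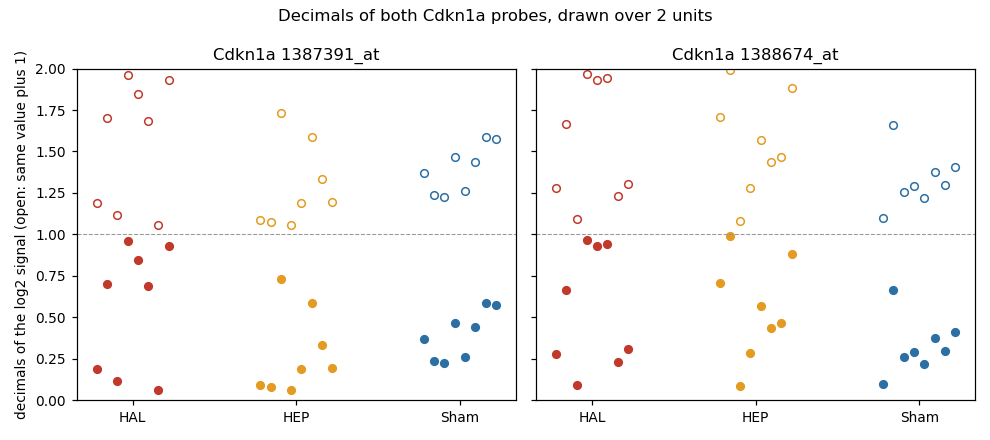
Decimals of the log2 signal of both Cdkn1a probes on each array of HAL, HEP and Sham, drawn once as filled points and again with 1 added as open points, because the integer part is unknown. In probe 1387391_at the Sham decimals lie together and the HAL decimals lie on both sides of them, above and below.

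The second Cdkn1a probe, 1388674_at, lay at 10 or above by its digits on all arrays but Sham array 7, where its decimals were 0.296 with 9 digits. Its Sham decimals lay together, with a concentration of 0.643, against 0.399 in HAL and 0.084 in HEP. Read close to 11 it gave 0.10 in HAL and 0.10 in HEP with a within-group SD of 0.484, because Sham array 7 then has a deviation of -1.90. Without Sham array 7 the values are -0.15 in HAL and -0.15 in HEP (adjusted p = 0.65 and 0.753 in limma). Read instead as 9 or 10 plus its decimals, with short cells left out, it gave 0.46 in HAL and 0.40 in HEP (adjusted p = 0.226 and 0.321 in limma). Neither reading passed, and they do not settle the direction of the first probe. Across the 24 arrays the readings of the 2 probes had a Pearson correlation of -0.129.

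The 6 probes of small spread give the firmest values, and 5 of them did not differ beyond their error in HAL. Hif3a was the tightest. Its deviations ran from -0.11 to 0.05 in HAL and from -0.10 to 0.16 in HEP, against -0.08 to 0.14 in Sham, and all 3 groups overlap. Its difference was -0.0003 in HAL (95% interval -0.11 to 0.11) and -0.0042 in HEP (-0.11 to 0.10), up to whole units. Klf9 was nearly as stable by its 2 dimmer probes. Probe 1387882_at differed by 0.01 in HAL (-0.13 to 0.15) and by 0.02 in HEP (-0.12 to 0.16). Probe 1390076_at differed by 0.05 in HAL (-0.08 to 0.18) and by -0.01 in HEP (-0.14 to 0.13). Changes of these probes beyond the intervals would have to be close to a whole log2 unit to go unseen.

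Cebpb and the dimmer Dusp1 probe had positive differences on the shorter way in both groups, and neither passed. Cebpb had deviations of -0.33, 0.02 and 0.29 in HAL (lowest, median and highest), -0.19, 0.03 and 0.41 in HEP, and -0.26, -0.07 and 0.02 in Sham. The groups overlap, and the highest Sham array lies near the median of both other groups. The difference was 0.12 in HAL (95% interval -0.06 to 0.29) and 0.13 in HEP (-0.04 to 0.31), with adjusted p of 0.621 and 0.671 in limma. Dusp1 probe 1368147_at had deviations of -0.32 to 0.33 in HAL and -0.12 to 0.38 in HEP, against -0.25 to 0.18 in Sham. Its difference was 0.13 in HAL (-0.06 to 0.32) and 0.19 in HEP (-0.01 to 0.38), with adjusted p of 0.623 and 0.550 in limma. This probe met the SD limit only narrowly, at 0.194 over all groups. Its HAL arrays alone had an SD of 0.253 and a concentration of 0.221, against 0.132 and 0.752 in Sham. Its direction in HAL is therefore not read.

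**Figure D3:**
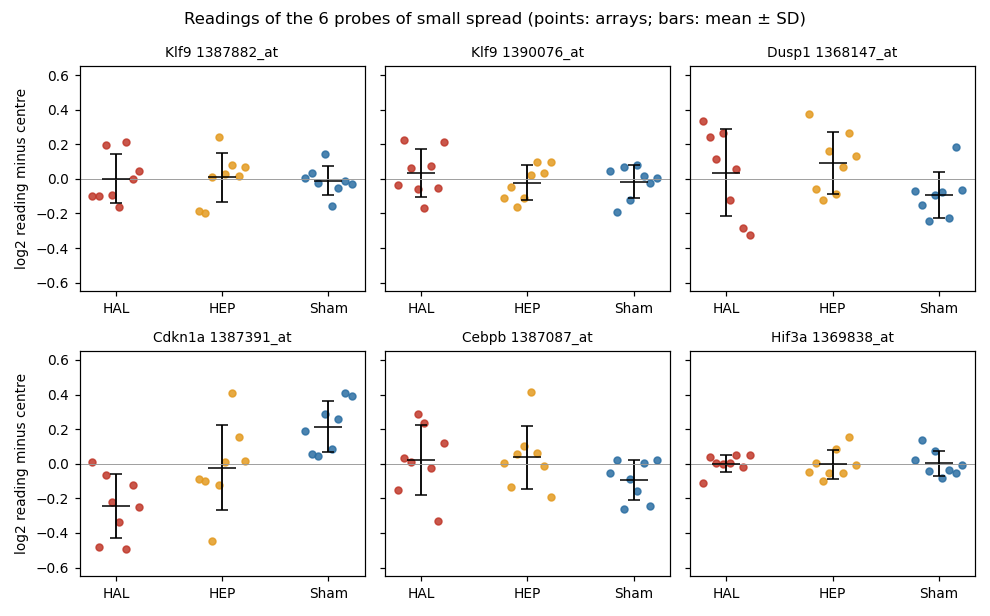
Log2 readings minus the probe centre for the 6 member probes with a within-group SD of at most 0.2, with 1 point per array and bars for mean ± SD (n = 8 in each of HAL, HEP and Sham). HAL and Sham arrays of Cdkn1a 1387391_at do not overlap as drawn, while the arrays of Hif3a and Klf9 lie together in all groups.

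**Figure D4:**
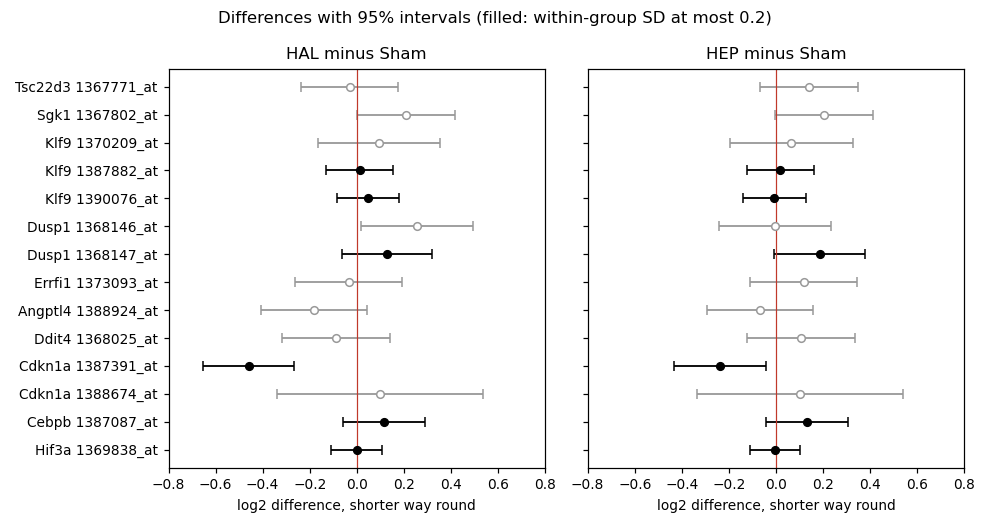
Log2 differences between the mean readings of HAL or HEP and those of Sham, labelled as the shorter way round, with 95% intervals from limma, for the 14 member probes. Filled points are the 6 probes of small spread; for open points the digits are spread so widely that neither size nor direction can be read.

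Other genes of the pathway did not pass either. Of 44 other glucocorticoid-induced genes 38 had a probe, 53 probes in all, and 0 were called in HAL or HEP, with 8 and 7 at an unadjusted p under 0.05 in limma, against 12.3% and 9.48% of all probes. Of the 53 probes 13 were of small spread. Their median difference was 0.08 in HAL and 0.10 in HEP, against 0.02 and 0.01 over all probes of small spread. Over all 53, most of them over the SD limit, it was 0.06 in each, and no direction is read from it. The smallest p in HAL was that of Per1, a clock gene directly induced by the receptor, with 0.42 (SE 0.11, adjusted p = 0.0929 in limma). Its within-group SD was 0.243, so this direction is not read. In HEP it was Arrdc3, an arrestin-domain protein, with 0.35 (SE 0.14, adjusted p = 0.362 in limma, within-group SD 0.304). Fkbp5, a co-chaperone that limits the receptor and is among its most induced targets, had values of 0.10 and -0.18 by its 2 probes in HAL and 0.05 and -0.10 in HEP (adjusted p of 0.514 or more in limma). The within-group SD of these probes was 0.288 and 0.228, over the limit of 0.2. Neither the size nor the direction of a change in Fkbp5 can therefore be read.

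Genes of the receptor and its partners did not pass. Of 22 genes for the receptor, its chaperones and co-regulators and steroid handling, 18 had a probe, 34 probes in all. None passed in limma in either group. At an unadjusted p under 0.05 in limma there were 11 of the 34 in HAL and 8 of the 34 in HEP. These are larger shares than the 12.3% and 9.48% of all probes. Whether the list differs from other probes was not tested. Their median difference was -0.01 in HAL and -0.03 in HEP, and over the 17 probes of small spread it was -0.02 in each. Nr3c1, the glucocorticoid receptor itself, had the smallest p in both groups by probe 1368221_at, which was bright on all arrays and tight (within-group SD 0.121). It differed by 0.26 in HAL (SE 0.068, adjusted p = 0.0768 in limma) and by 0.30 in HEP (SE 0.068, adjusted p = 0.0621 in limma), on the shorter way round. A second Nr3c1 probe, 1368222_at, with 18 arrays of 9 digits, gave -0.05 in HAL and -0.07 in HEP (adjusted p of 0.805 and 0.809 in limma), so the probes of this gene disagree. Hsd11b1, which regenerates active glucocorticoid inside cells, was bright on all arrays. It had 0.23 in HAL and 0.27 in HEP (adjusted p = 0.173 and 0.15 in limma). Of the 34 probes 17 had positive differences in HAL and 14 in HEP. Most of those at an unadjusted p under 0.05 in limma had negative differences in both groups. Some of these probes are over the SD limit, so no direction is read for them. St13, also on the list, had -0.18 in HAL and -0.11 in HEP by its bright probe (adjusted p = 0.130 and 0.522 in limma). The within-group SD of this probe was 0.077.

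Genes of other pathways that act on some members were set beside them. Of 15 p53 targets, which share the regulator of Cdkn1a, 11 had a probe, 16 probes in all, and 0 passed in either group. At an unadjusted p under 0.05 in limma there was 1 in HAL and 1 in HEP, against 12.3% and 9.48% of all probes. Aen, an exonuclease induced by p53, came closest with 0.19 in HAL and 0.21 in HEP (adjusted p = 0.387 and 0.403 in limma). A second Aen probe gave -0.09 in HAL and 0.09 in HEP (adjusted p = 0.783 and 0.869 in limma). Its within-group SD was 0.222, so its direction is not read. Of 19 hypoxia response genes all 19 had a probe, 30 probes in all, and 0 passed in HAL and 1 in HEP, against 0.325% and 0.0805% of all probes. At an unadjusted p under 0.05 in limma there were 3 in HAL and 4 in HEP, against 12.3% and 9.48%. The probe that passed was of Higd1a, a mitochondrial protein induced by hypoxia. It differed by 0.31 in HAL (adjusted p = 0.0733 in limma) and 0.38 in HEP (adjusted p = 0.0480 in limma) on the shorter way round. The second Higd1a probe gave 0.25 in HAL and 0.15 in HEP (adjusted p = 0.284 and 0.699 in limma). With a within-group SD of 0.21, its direction is not read. Ddit4, Angptl4 and Hif3a, which hypoxia also induces, did not pass in either group. The within-group SD was 0.239 for Ddit4 and 0.234 for Angptl4, so neither size nor direction can be read for these 2 genes.

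By likeness across arrays, the 24 readings of Klf9 probe 1390076_at were most like those of Tigd3, Vps9d1, Krt15, Ube3b and Neb, with Pearson correlations of 0.766, 0.749, 0.722, 0.721 and 0.72. These 5 were the highest found and are given as a description. This probe was used because no probe of Tsc22d3 or Sgk1 met the SD limit.

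The 15 RefSeq promoter windows of the 10 genes (GRCr8, 250 bases before to 50 after each start) were searched for the full glucocorticoid response element, which is AGAACA and TGTTCT with any 3 bases between them, and for AGAACA alone, on both strands. Neither was found in any of the 15. Of all 33469 windows 0.0149% hold the full element and 20.7% AGAACA, which every full element also contains. Response elements farther from the start were not searched.

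The labelled tissue was checked by its markers. Among endothelial markers 8 of the 9 on the array were at 10 or above throughout, as were 3 of 8 pericyte, 2 of 6 smooth muscle, 4 of 6 perivascular fibroblast, 4 of 8 astrocyte and 1 of 5 oligodendrocyte markers. Of the 9 neuron, 8 microglia and macrophage, 5 neutrophil and 6 hepatocyte markers 0 were, and of the 2 red cell markers 1 was. Of 107 marker probes 0 were called in HAL, HEP or HAL minus HEP in limma. Over marker probes of small spread, the median difference was 0.06 in HAL and -0.06 in HEP for microglia and macrophages (3 probes), and 0.16 and -0.002 for neutrophils (3 probes). It was 0.12 and 0.16 for oligodendrocytes (2 probes), 0.10 and 0.05 for astrocytes (4 probes), 0.03 and -0.02 for neurons (4 probes), and 0.05 and 0.01 for hepatocytes (5 probes). For endothelium it was -0.04 and 0.01 (5 probes), for pericytes 0.02 and -0.06 (4 probes), and for fibroblasts 0.04 and -0.01 (2 probes), with no such probe for smooth muscle or red cells. Their part in the members' values was not tested. No columns were identical. Deviations from the mean of each probe over all arrays were also correlated between arrays, over probes of small spread. The median correlation between an array and the others of its group ran from -0.0797 to 0.118. With the probe means removed, these values do not measure how well whole arrays agree.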

How the data were processed

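RNA of 24 samples was hybridised to 1 array each. The authors' signals are RMA log2 values, normalised across arrays, per the submitters' processing notes; the version used is not known here. The DNA, per the labels' protocols, was prepared with an Affymetrix whole-transcript kit, while the probe identifiers are those of a 3' expression array. The deposited values were treated as a score: 746376 whole numbers of at most 9 digits, 0 of them ending in 0, read here as decimals of log2 signals stored to 10 significant digits. Where the integer parts were lost is unknown. The planned test for log2 values was kept, on readings of these digits.

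For each of 31042 probes (57 controls left out) the likeliest centre between 8.5 and 11.5 was found with spreads of 0.1 to 0.45, allowing for lost zeros, the change from 9 to 8 decimals at 10 and 0.02 of cells anywhere. Each cell was then read as the value closest to that centre. Group means over all arrays were fitted in limma (3.58.1, R 4.3.3) and moderated by eBayes, with Benjamini-Hochberg adjustment over all probes. The steps were tested on simulated data. Reading probes with 1 to 14 cells of 9 digits as close to 10 was an alternative, because 943 of these 2521 probes, Hif3a and Cebpb among them, were likelier to lie below 10 throughout. The exact permutation test used the summed resultant lengths of both groups. Python 3.11.15 with numpy 2.4.6 was used. Gene symbols come from the platform annotation, which gives 20832 probes 1 symbol; 20764 of these matched the GRCr8 gene table by Entrez identifier and 0 symbols changed.

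Named genes are all members and, from each list, up to 3 called genes with the smallest p or else the 1 with the smallest p. Hsd11b1, St13, Fkbp5 and the second Nr3c1 probe were added after their values were seen. The second probes of Aen and Higd1a also lie outside this rule. Members, lists and markers were chosen with earlier results of these data known. Sample numbers were checked as pairs: correlations of deviations between same-numbered arrays ran from -0.119 to 0.179, over 0.1 in 5 of 24 pairs. Arrays of different numbers were not set beside them, so this check cannot tell whether the numbers mark pairs.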

Additional observations from a re-analysis of the deposited data

Results flagged for a closer look

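In each of the 42 sets of 8 arrays (14 probes in 3 groups) the lowest and highest array was compared with its neighbour by Dixon's ratio against its limit at 95%. Chance alone marks about 1 in 20 sets, and 4 were marked here. Sham array 7 stood apart at a deviation of -1.9 for Cdkn1a probe 1388674_at, where it alone has 9 digits. It was also the highest Sham array for Dusp1 probe 1368147_at, at 0.18. Sham array 6 was the highest for Dusp1 probe 1368146_at, at 0.49, which is close to the edge of the unit on which values are read. HAL array 1 was the lowest for Hif3a, at -0.11. No member differed between HAL and HEP past the threshold.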

How the results depend on the processing

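In HEP minus Sham and HAL minus HEP 0 member probes were called under all 37 alternatives. In HAL minus Sham the count of 1 (Cdkn1a) was 0 in the reading close to 10, which does not test that probe, 0 with the spread fixed at 0.2, 0 in the exact permutation test, and, in 2 alternatives chosen after seeing the data, 0 with the likeliest reading of each cell and 0 without HAL arrays 2 and 5 and Sham array 3 together. Leaving out each array in turn gave 0 to 1, with 16 of 24 fits keeping the call. With the replicate block the count was 1 (-0.46, adjusted p = 0.0476 in limma). The adjusted p of Cdkn1a ranged from 0.00472 to 0.492 and its value from -0.53 to -0.21. Why the call ended was not tested. Counts over all probes moved more. Against 101 in HAL and 25 in HEP there were 154 and 39 with full-length cells only, 198 and 100 with the likeliest reading, 121 and 9 with the spread fixed, 124 and 105 with array weights, 113 and 6 with 2 groups in the fit, 495 and 233 among the 17489 probes of small spread, 154 and 55 among 14217 with 1 probe per gene, 75 and 13 with the replicate block, 27 and 17 without the 3 arrays, and 94 and 57 of only 2520 probes tested in the reading close to 10. Leaving out 1 array gave 30 to 167 and 6 to 211. With arrays centred 125 and 54 passed, with 40.7% of the HEP calls upward on the shorter way, against 52.0% without centring; this share was 11.1% without HEP array 7. The lost integer parts limit every value, and the number of arrays limits the precision.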
